A study of Rattus norvegicus with 25 samples.

Results

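Klf2 (ENSRNOG00000014205) and Klf4 (ENSRNOG00000016299), a pair of Kruppel-like factors, were followed in the hippocampus of rats after the forced swim test (FST). They are 2 of the 32623 genes in the deposited files and 2 of the 13908 genes tested. Both were chosen because in these same data their RNA was higher in rats killed 20 min after swimming than in unswum control rats, so that their difference between those groups is given as a description, with no test. Klf2 averaged 12.1 ± 4.02 CPM (SD, n = 7) at 20 min against 5.97 ± 1.03 CPM (SD, n = 6) in control rats. CPM is a count scaled to the total of its library, with totals adjusted by TMM. Klf4 averaged 9.95 ± 1.42 CPM (SD, n = 7) against 5.71 ± 0.979 CPM (SD, n = 6). At 24 h Klf2 was at 6.47 ± 1.38 CPM and Klf4 at 6.19 ± 2.15 CPM (SD, n = 6), and neither gene passed edgeR's quasi-likelihood test against control rats.

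Kruppel-like factors are transcription factors with zinc fingers that bind GC-rich and CACCC-type sites in DNA. Klf2 and Klf4 are best known from vascular endothelium, where flow of blood over the cells induces both through the kinases MEK5 and ERK5 and the MEF2 factors, and where they restrain inflammation and clotting. Klf2 also keeps T lymphocytes quiescent, and Klf4 is one of the factors used to reprogram cells to pluripotency and acts in epithelial differentiation. Brain tissue holds neurons, glia and vessels, and RNA from a whole hippocampus does not say which of these cells carried the transcripts. In such bulk samples, fewer cells of a type and less RNA per cell cannot be told apart.

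The animals were male Sprague Dawley rats, and the labels name no genetic change or drug. The FST consisted of a pretest of 15 min and, on the next day, a test of 5 min in water that the rats could not leave. The 20-m group (7 rats) was decapitated 20 min after the FST, the 24-h group (6 rats) 24 h after it, and the control group (6 rats) did not swim. Poly(A) RNA of the hippocampus of each rat was sequenced, in 3 runs each for control rats 21 and 27 and 20-m rat 10, which makes 25 libraries of 19 rats. Of the batches, batch 1 contained 3 control, 3 20-m and 3 24-h rats, batch 2 contained 1 control, 3 20-m and 3 24-h rats, and batches 3 to 5 were the repeated runs, with no 24-h rat. Each rat is a separate animal and is named here by its number in the labels. The tissue label was not checked against marker genes, since names were matched only for the genes listed in the study's supplement.

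Summed over all genes, each rat had 6217600 to 9032924 counts, with medians of 7365258 in control rats, 7180334 in the 20-m group and 7143222 in the 24-h group. Klf2 took 10 to 148 of the counts of a library and 1151 over the series. Klf4 took 8 to 97 of them and 1019 over the series. At such counts chance in counting alone gives a coefficient of variation (CV) of 10.8% to 15.6% between the rats of a group. Each gene has 1 transcript in the annotation, and RSEM's posterior SD of the count was 0 in all 25 libraries for both, so that no part of these counts was an estimate over shared reads.

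Klf2 was low and even in control rats, from 4.31 CPM in rat 22 to 7.15 CPM in rat 28, with a median of 6.18 CPM. In the 20-m group it ranged from 6.63 CPM in rat 12 through a median of 11.6 CPM to 18.8 CPM in rat 2. In the 24-h group it ranged from 5.09 CPM in rat 13 through a median of 6.32 CPM to 8.77 CPM in rat 17. Thus 6 of 7 rats of the 20-m group lay above all 6 control rats, and rat 12 lay among them. The gene was chosen on this difference, and how many of all tested genes separate the groups so was not counted. Nothing is therefore read from the separation. Against the 24-h group, 5 of 7 rats of the 20-m group lay above all 6, with rat 5 at 8.76 CPM just under 24-h rat 17. Only rat 17 of the 24-h group lay above the highest control rat for Klf2, and none lay below the lowest. In raw counts the medians were 40 in control rats, 80 at 20 min and 45 at 24 h.

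Klf4 ran from 4.69 CPM in control rat 27 to 6.98 CPM in control rat 25, with a median of 5.52 CPM. In the 20-m group it ran from 8.29 CPM in rat 5 through a median of 9.58 CPM to 12.3 CPM in rat 2. In the 24-h group it ran from 4.55 CPM in rat 19 through a median of 5.48 CPM to 10.4 CPM in rat 13. All 7 rats of the 20-m group therefore lay above all 6 control rats, with a gap between rat 5 and control rat 25. As for Klf2, the gene was chosen on this difference and the share over all tested genes was not counted. Against the 24-h group, 2 of 7 rats of the 20-m group, rats 2 and 7, lay above all 6, because 24-h rat 13 lay inside the range of the 20-m group. The 5 other rats of the 24-h group had Klf4 at 4.55 to 6.10 CPM, below every rat of the 20-m group. Median raw counts of Klf4 were 42 in control rats, 68 at 20 min and 39.5 at 24 h.

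**Figure D1:**
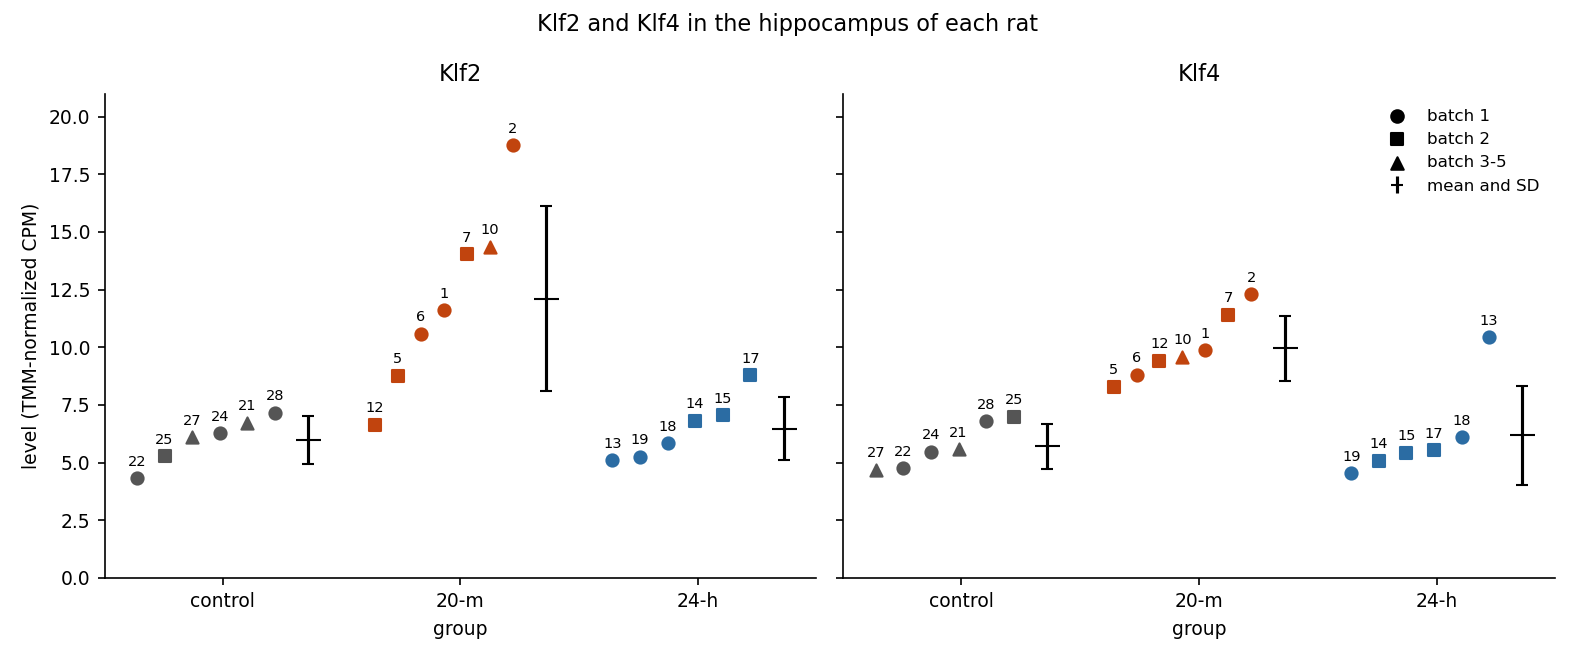
Level of Klf2 (left) and Klf4 (right) in TMM-normalized CPM for each rat, with 1 point per rat ordered by level within its group, the rat's number above it, and the mean and SD of the group beside it. Point shapes give the batch. Klf2 is widely spread in the 20-m group (6.63 to 18.8 CPM), whereas Klf4 is compact there (8.29 to 12.3 CPM) and has rat 13 at 10.4 CPM apart from the rest of the 24-h group.

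The spread between rats was not alike for the 2 genes. For Klf2 the CV of CPM was 33.2% in the 20-m group, 3.07 times the CV that counting alone gives, against 1.13 times in control rats and 1.46 times in the 24-h group. For Klf4 the CV in the 20-m group was 14.3%, which is 1.19 times the counting CV, and in control rats it was 1.10 times. In the 24-h group the CV of Klf4 was 34.7%, and without rat 13 it was 10.8%, below the counting CV of 16.2%. These ratios set the spread of separate animals beside counting error alone, and no test of a difference in spread was run. Over the whole fit edgeR's biological coefficient of variation was 0.229 for Klf2 and 0.177 for Klf4, against medians of 0.133 and 0.141 over the 1000 genes nearest to each in level.

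From control to 20 min the fitted log2 fold change of Klf2 was 1.08 (SE 0.209, 95% confidence interval 0.64 to 1.51), a fold of 2.11. For Klf4 it was 0.80 (SE 0.174, interval 0.44 to 1.17), a fold of 1.74. The intervals of the pair overlap, and whether the 2 genes differ in this change was not tested. In this comparison edgeR called 6 of 13908 genes (0.0431%) with thresholds of 0.05 for the adjusted p and 1.5 for the fold change, and 0 of the 2 members. The count of members depended on the method, since DESeq2 and ComBat with limma each called both. Because the genes were chosen on this contrast, nothing is read from whether they were called.

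Within each batch both genes were higher at 20 min than in control rats. The batches divide the same rats on which the genes were chosen, so these differences are a description. Klf2 differed by 1.15 in log2 CPM in batch 1 (3 rats against 3), by 0.80 in batch 2 (3 against 1) and by 1.13 in batches 3 to 5 (1 against 2). Klf4 differed by 0.84, 0.45 and 0.87 in the same batches. The smallest of these differences, in batch 2 for both genes, rests on control rat 25 alone, which had the highest Klf4 of all control rats.

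At 24 h the question was whether the rats still differed from rats that had not swum. For this comparison the 24-h rats took no part in choosing the genes, although the 6 control rats did, and the comparisons at 20 min and at 24 h share these control rats. Klf2 had a log2 fold change of 0.21 (SE 0.239, interval -0.29 to 0.71), with an adjusted p of 1 from edgeR. As a fold this is 1.15, with an interval of 0.816 to 1.63. For Klf4 the log2 fold change was 0.10 (SE 0.193, interval -0.31 to 0.50), with an adjusted p of 1 from edgeR. As a fold this is 1.07, with an interval of 0.809 to 1.42. A return to the control level was therefore not told apart from a remaining change within these intervals. Of all genes tested, 0 of 13908 (0%) were called at 24 h by edgeR, and 0 by DESeq2 and by limma with voom. In edgeR 441 had an unadjusted p under 0.05, which is less than a share of 0.05 of the genes tested. That count is therefore not read as a sign of remaining change.

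The fitted sign at 24 h was kept in 33 of 34 alternatives for each gene. These fits reuse mostly the same counts, so the tally does not make the sign firm. In the main fit the unadjusted p from edgeR was 0.397 for Klf2 and 0.616 for Klf4. The differences within batches had opposite signs. For Klf2 the 24-h minus control difference in log2 CPM was -0.10 in batch 1 and 0.49 in batch 2, where 1 control rat was available. For Klf4 the values were 0.23 in batch 1 and -0.37 in batch 2. Without rat 13 the log2 fold change of Klf4 at 24 h was -0.14, with an adjusted p of 1 from edgeR, and the mean of the group was 5.34 ± 0.576 CPM (SD, n = 5), close to the control mean.

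The 20-m and 24-h groups both swam and are balanced over batches 1 and 2. Between them Klf2 was higher at 20 min by a log2 fold change of 0.87 (SE 0.206, interval 0.44 to 1.30) and Klf4 by 0.70 (SE 0.170, interval 0.35 to 1.06), given as a description because the 20-m rats chose the genes. By batch, Klf2 differed by 1.25 in log2 CPM in batch 1 and by only 0.31 in batch 2, which holds both rat 12, the lowest Klf2 of the 20-m group, and rat 17, the highest of the 24-h group. Klf4 differed by 0.60 and 0.82, the smaller value in batch 1, which holds rat 13. In order of mean level both genes stood as 20-m, 24-h and control, and the last 2 groups did not differ beyond their spread.

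The batches themselves showed no called shift of either gene. Between batches 2 and 1 Klf2 differed by a log2 fold change of -0.07 (SE 0.189) and Klf4 by -0.13 (SE 0.154), with adjusted p-values from edgeR of 0.854 and 0.613, in a term that called 17.6% of all genes at an adjusted p under 0.05. Between batches 3 to 5 and batch 1 the values were 0.20 (SE 0.251) for Klf2 and -0.20 (SE 0.217) for Klf4, with adjusted p-values from edgeR of 0.696 and 0.637, where 10.1% of genes were called.

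The repeated runs show how precise the values of 1 rat are. In 20-m rat 10 Klf2 lay at 19.9 to 22.1 TPM over 3 runs, and in control rat 27 it lay at 5.73 to 11.7 TPM. Klf4 lay at 4.89 to 6.55 TPM in rat 10 and at 2.41 to 3.17 TPM in rat 27. RSEM's credibility intervals of the 3 runs overlapped for both genes in all 3 rats. For Klf2 the lowest run of rat 10 lay above the highest run of control rats 21 and 27, and the same held for Klf4.

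**Figure D2:**
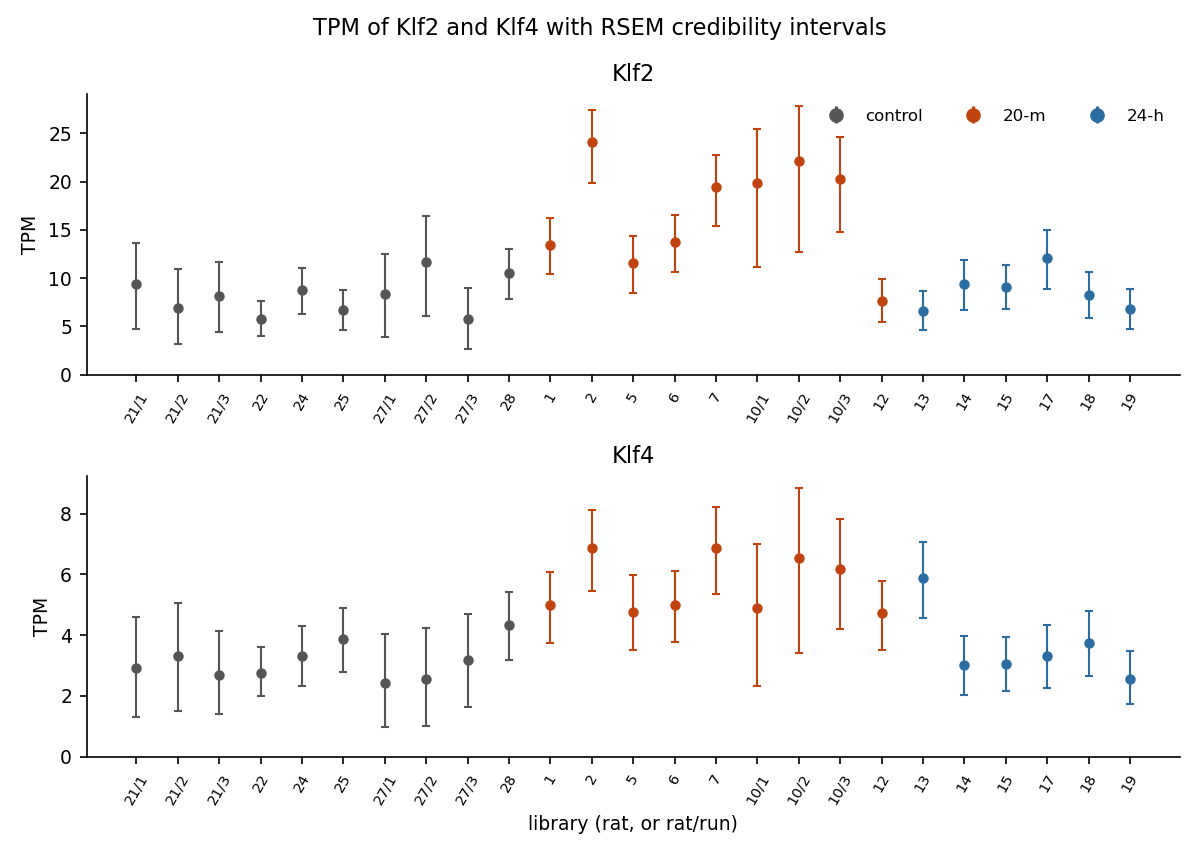
TPM of Klf2 (top) and Klf4 (bottom) in each of the 25 libraries, named by rat or by rat and run, with RSEM's credibility interval as the bar. Runs of rats 10, 21 and 27 overlap within a rat, and their bars are wider because each run is shallower. Klf4 of 24-h rat 13, at 5.87 TPM, lies with the 20-m group.

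Levels of the 2 genes can be set against each other only per transcript length, since the annotated transcript of Klf4 (2366 bases) is 2.24 times as long as that of Klf2 (1056 bases). In TPM, which divides by length, Klf2 averaged 8.04 ± 1.66 in control rats (SD, n = 6), 15.8 ± 5.75 at 20 min (SD, n = 7) and 8.69 ± 2.01 at 24 h (SD, n = 6). Klf4 averaged 3.33 ± 0.649, 5.60 ± 0.965 and 3.59 ± 1.18 TPM in the same groups. Klf2 was the more abundant per length in 19 of 19 rats. Over all rats Klf2 had a mean of 11.1 TPM, higher than 45.4% of tested genes, and Klf4 a mean of 4.25 TPM, higher than 22.5% of them.

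The ratio of Klf2 to Klf4 in TPM was 1.74 to 3.00 in control rats, with a median of 2.53. In the 20-m group it was 1.62 in rat 12 to 3.51 in rat 2, with a median of 2.76. In the 24-h group it was 1.12 in rat 13 to 3.64 in rat 17, with a median of 2.83. The ranges overlap throughout, and the lowest and highest ratios of all 19 rats are both in the 24-h group. The mean log2 ratio at 24 h was higher than in control rats by 0.03 (6 rats against 6), with p = 0.913 in a 2-sided exact permutation test over 924 arrangements, whose smallest possible p is 0.00216. The arrangements exchanged rats across batches, although control rats 21 and 27 have no 24-h rat in their batches. Within batches the difference was -0.34 in batch 1 and 0.90 in batch 2, where it rests on control rat 25 alone, the control rat with the lowest ratio. At 20 min the mean log2 ratio was higher than in control rats by 0.16, as a description.

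**Figure D3:**
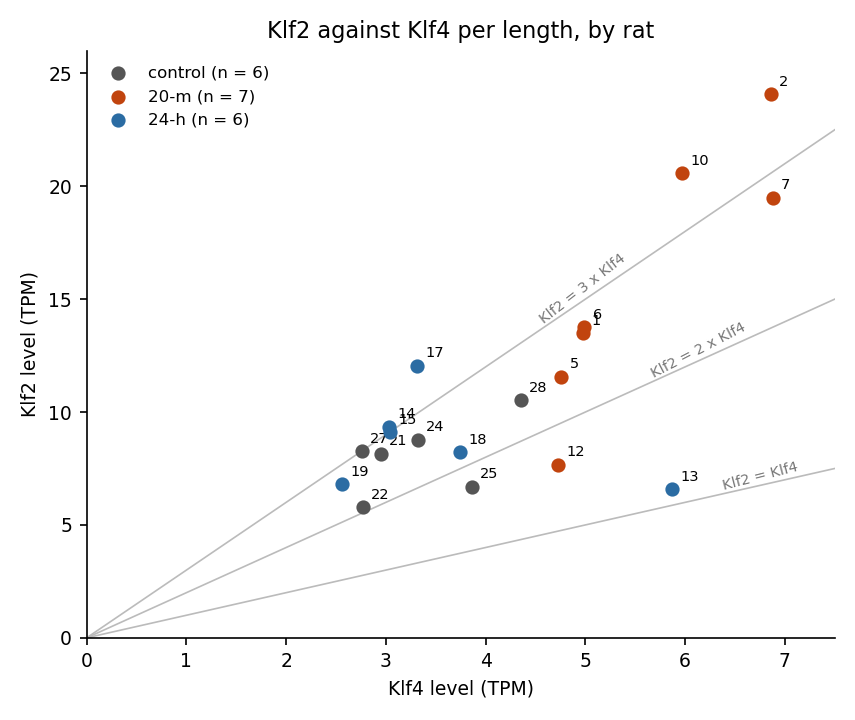
TPM of Klf2 (vertical axis) against TPM of Klf4 (horizontal axis), 1 point per rat with its number, coloured by group, with lines where Klf2 equals 1, 2 and 3 times Klf4. All 19 rats lie above the line of equality, 24-h rat 13 (ratio 1.12) closest to it, and 20-m rats 2, 7 and 10 lie far from the control rats along both axes.

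Whether rats of 1 group that had more Klf2 also had more Klf4 was asked after the mean of each group and batch was taken from log2 CPM, so that differences between groups do not enter. This left the 17 rats that share their group and batch with another rat, of which 13 lay on the same side of the mean for both genes. Pearson's r was 0.450 (exact permutation test within group and batch, 2-sided, p = 0.0458) and Spearman's rho was 0.539 (p = 0.0518 by the same exact test, 15552 arrangements). Adjusted over these 2 coefficients, both p-values are 0.0518 and miss the threshold. The relation rests on few rats. Without 20-m rats 7 and 2, the farthest from the median of Klf2, r was 0.210 (p = 0.447, exact permutation test). Without 24-h rat 13, chosen after its values were seen, r was 0.785 (p = 0.00752, exact permutation test) and rho 0.762.

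**Figure D4:**
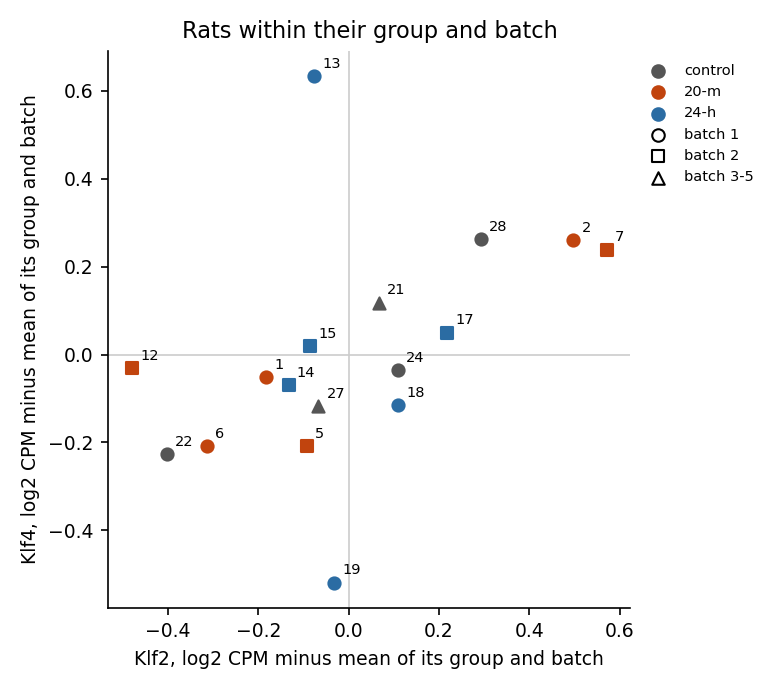
Log2 CPM of Klf4 (vertical) against Klf2 (horizontal) after the mean of each rat's group and batch was subtracted, 1 point per rat (n = 17), coloured by group and shaped by batch. Rats 2, 7 and 28 lie high for both genes and rats 22 and 6 low for both, while 24-h rats 13 and 19 of batch 1 lie far apart for Klf4 and close together for Klf2.

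The genes whose pattern over the 19 rats was most like that of Klf2 were found by Pearson's r in log2 CPM after batch was removed. Differences between groups enter this measure, all points share library depth, and the 20-m rats chose the genes, so the values are a description. Highest among 13907 genes was Zfp36 (r = 0.910), which encodes an RNA-binding protein that promotes decay of mRNAs with AU-rich elements. Next stood the gene ENSRNOG00000003888 (0.861), which has no name in the sources matched here, then Btg2 (0.860), an antiproliferative gene, Ccn1 (0.856), a matricellular protein, and Dusp1 (0.842), a phosphatase of MAP kinases. Klf4 ranked 25 for Klf2, with r = 0.728. For Klf4 the highest were the stress-induced transcription factor Atf3 (0.863), the endothelial early response gene Apold1 (0.856), the salt-inducible kinase Sik1 (0.836), Dusp1 (0.817) and Ccn1 (0.805). Klf2 ranked 23 for Klf4, so that each member of the pair had more than 20 genes closer to it than the other member, with Dusp1 and Ccn1 among the first 5 of both. Of these named genes all but ENSRNOG00000003888 belong to a list of genes that the study picked from these same rats.

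That list has 14 entries under 13 identifiers, which are Klf2, Klf4 and 11 others, of which 8 pair with 1 clear symbol. It was chosen on these samples and is not independent evidence of direction. At 20 min 9 of the 11 others were higher and 2 lower than in control rats, with a median log2 fold change of 1.14 against 0.00 over all genes tested, and 5 of 11 were called by edgeR. The 2 lower ones, neither of them called, were ENSRNOG00000053462 at -1.19 and ENSRNOG00000032585, which had counts in 8 of the 19 rats. The study's supplement lists ENSRNOG00000053462 as raised at 20 min, opposite to its direction here. Its identifier in that list is therefore uncertain, and so is the count of higher and lower genes. Among the 8 with a symbol all were higher. The largest of these were Ccn1 at 3.38, Apold1 at 2.53 and Atf3 at 1.69, the last not called, and the lowest was Btg2 at 0.76, so that Klf4, at 0.80, stood near the low end of the 8 and Klf2, at 1.08, below the median. Dusp1 (1.69), Sik1 (1.14) and Zfp36 (1.12) were the other called genes. At 24 h 7 of the 11 were higher and 4 lower than in control rats, with a median of 0.10, and 0 were called by edgeR.

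**Figure D5:**
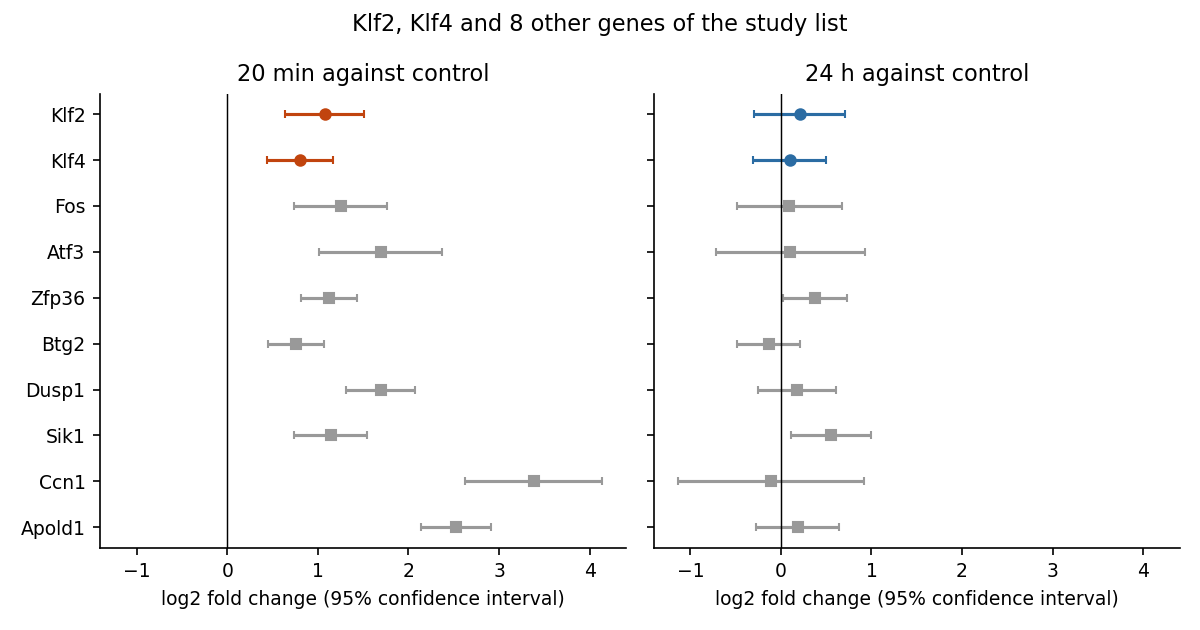
Log2 fold change with its 95% confidence interval from edgeR for Klf2, Klf4 and the 8 other named genes of the study's list, at 20 min (left) and 24 h (right) against control. At 20 min the intervals of these 10 genes lie above 0, with Klf2 at 1.08 and Klf4 at 0.80, and at 24 h the intervals of Klf2 (-0.29 to 0.71) and Klf4 (-0.31 to 0.50) both span 0.

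The rats that were high or low for Klf2 and Klf4 differed in the other listed genes. Rat 2 was the highest of the 20-m group for both Klf2 and Klf4 and for 6 of the 10 listed genes with a symbol in all, the others being Apold1, Btg2, Ccn1 and Dusp1. Rat 12 was the lowest of the 20-m group for Klf2 and also for Zfp36, Ccn1 and Fos, 4 of the 10 listed genes, yet the highest for Atf3, and its Klf4 of 9.41 CPM was close to the group median. At 24 h rat 13 was highest for Klf4, Sik1, Apold1 and Atf3, by 0.94, 0.99, 0.90 and 0.82 in log2 CPM above the mean of the 5 other rats. The same rat was lowest for Klf2 and Btg2, with differences from that mean of -0.37 and -0.32. These genes and rats were picked after their values were seen, and no test was made of them.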

How the data were processed

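Reads of 50 bases were trimmed with AdapterRemoval V2, aligned with STAR and quantified with RSEM on the Rnor 6.0 annotation, release 93, by the authors. For STAR and RSEM no version was given in the sources used here. The authors deposited RSEM's expected counts (not normalized), TPM, and RSEM's posterior SD and credibility bounds per gene, with no batch correction. Here runs of rats 10, 21 and 27 were summed, and TPM was averaged over runs by depth. Expected counts were rounded, genes filtered by edgeR's filterByExpr (minimum count 10, minimum total 15), and edgeR's quasi-likelihood test was fitted with TMM to 19 rats with group and batch as terms (batches 3 to 5 as 1 level, 14 residual degrees of freedom), with Benjamini-Hochberg adjustment over 13908 genes. Log2 CPM had a prior count of 2. The scripts were tested on simulated data. Confidence and counting values cover these animals and counting error only.

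The members and lists were chosen with earlier results of these data known. Named were Klf2, Klf4, the 5 genes most like each, the 3 largest of the study's list and those called. Lists of markers and pathways were not used here, since their names were not matched to the identifiers. Alternatives were DESeq2, limma with voom, ComBat, other filters and scalings, single batches, separate libraries with those of a rat correlated, and each rat left out. Tools were R 4.3.3, edgeR 4.0.16, limma 3.58.1, DESeq2 1.42.0, sva 3.50.0, Python 3.11.15, numpy 2.4.6, pandas 2.3.3, scipy 1.17.1 and matplotlib 3.10.9.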

Additional observations from a re-analysis of the deposited data

Results flagged for a closer look

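Klf4 in 24-h rat 13 stood far above the other rats of its group, at 10.4 CPM against 4.55 to 6.10 CPM (median 5.42) in the 5 others. The gap to the nearest rat was 0.736 of the range of the group, above Dixon's critical value of 0.625 for 6 samples. In TPM the same rat was at 5.87 against 2.56 to 3.74 (median 3.04), with a gap of 0.644 of the range. Of 15 groups of values examined for Klf2, Klf4 and their ratio, these 2 held such a sample, which is 1 measurement on 2 scales. Chance gives about 1 in 20 groups where groups are independent. Here CPM, TPM and the ratio share the same counts, so the flags cannot be set against that rate. The value rests on 80 counts in 1 library, and what sets this rat apart was not tested.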

How the results depend on the processing

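For Klf2 and Klf4 at 20 min the direction held under all 34 alternatives, with log2 fold changes of 0.89 to 1.21 and 0.61 to 0.93. Both genes were chosen for this direction in these same rats, so its being kept is a description and no support. The 6 genes called at 20 min became 15 with DESeq2, 15 with ComBat and limma, 10 with no filter and 0 in batch 1 alone (fewer rats), and 4 to 8 with a rat left out. Klf2 and Klf4 were both called with DESeq2, with ComBat and with the 25 libraries kept separate, and Klf2 alone with no filter. Neither was called in 11 of the 15 alternatives that did not leave a rat out. With a rat left out, neither was called in 17 of 19 fits. In limma with voom, with the 25 libraries kept separate and those of a rat correlated, 20 genes were called. With limma and voom on runs summed per rat, 6 were called. In the fit of 25 libraries Klf2 and Klf4 had log2 fold changes of 1.07 and 0.80. The 25 libraries came from 19 rats, so the higher count is not read as stronger evidence. At 24 h 0 genes were called under all 34 alternatives. In batch 1 alone Klf2 reversed at 24 h (-0.12), Klf2 between 20 min and 24 h was 1.33, and the log2 ratio of Klf2 to Klf4 was -0.34. With a rat left out, Klf4 at 24 h was -0.14 to 0.23, negative without rat 13, and the ratio was -0.08 to 0.26, negative without control rats 22 (-0.0072) or 25 (-0.06) or 24-h rats 14 (-0.03), 15 (-0.02) or 17 (-0.080). The r between Klf2 and Klf4 was higher, at 0.59, in log2(TPM + 1) in place of log2 CPM. It was 0.23 with additive group and batch, 0.21 without the 2 farthest rats, 0.28 in control and 24-h rats alone and 0.18 with group alone removed. With a rat left out it was 0.35 to 0.79. Apart from the construction of each alternative, the cause was not tested. With 8 to 148 counts per library and 6 rats in each group, changes at 24 h inside the intervals given cannot be told from none, and the part of depth in their width was not tested.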
